A study of Mus musculus with 6 samples.

Results

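Corticothalamic projection neurons are the cortical neurons, mostly of layer 6, whose axons run to the thalamus. This comparison set 2 arrays of such neurons collected at P3 against 2 arrays collected at E18, out of 6 arrays in the series. For each probe set annotated to a single gene symbol, the change is the mean of the P3 arrays minus the mean of the E18 arrays, on the deposited log2 scale. A difference of 1 log2 unit is a doubling or halving of signal. Of 18193 genes with such a probe set, 13645 were tested. All mice were C57BL/6 and wild type per the labels. For the stage named E18, green fluorescent microspheres were placed in the thalamus at E17.5 and cortex was taken at E18.5. For P3 the injection was at P1 and the cortex was taken at P3. Labelled cells were sorted by fluorescence after the cortex was dissociated, so any cell holding microspheres could enter the sort. The interval from injection to collection was therefore longer at P3, and it cannot be told apart from stage. The labels do not tie the 2 arrays per stage to different animals or sorts, so each p-value speaks of array-to-array spread, which may be technical.

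A newly arrived cortical neuron first grows its axon and then turns to synapse formation and electrical signalling. Calcium entering through channels acts on kinases, phosphatases and adenylyl cyclases, while adhesion molecules of the axon and dendrite select partners. In dividing precursors, by contrast, Notch, Hedgehog, Wnt and BMP signalling and a characteristic set of transcription factors keep cells in the cycle. Bulk RNA from sorted cells sums all cells in the tube, so fewer cells of a type and less RNA per cell cannot be told apart.

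The arrays differed in ways that touch the results. The E18 arrays were nearly alike, the log2 differences between them having an SD of 0.127, against 0.573 for the P3 arrays. Hybridization controls averaged 9.59 and 9.25 on the E18 arrays and 11.72 and 11.59 on the P3 arrays, and the 18S probe sets reached 14.22 on P3 array 2. Markers of other cells also moved. The summed linear level of 217 tested cell-cycle genes was 408946 and 418959 at E18 and 77839 and 59583 at P3, and that of 47 tested genes of radial glia and intermediate progenitors was 137674 and 138994 at E18 and 13725 and 12028 at P3. In the same lists, 202 and 42 genes fell. The sum of 15 tested microglial genes was 9765 and 9671 at E18 and 1822 and 3225 at P3, and that of 15 astrocyte genes was 17852 and 18807 against 4684 and 4067. The 16 tested genes of corticothalamic and layer 6 neurons summed to 6398 and 6819 at E18 and to 28600 and 19960 at P3, and 15 of them rose. The part of these cells in the changes below was not tested.

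At an adjusted p below 0.05 in limma's moderated test, 2116 genes rose (15.5% of those tested) and 3513 fell (25.7%). After quantile normalization 2874 rose and 2806 fell, so the balance of rises and falls depended on scaling. With the E18 arrays averaged into 1 the counts were 710 and 1742, and with the hybridization controls as a covariate 801 and 1462. A change was counted as holding on both P3 arrays when the gene was called and each P3 array alone lay at least 1 log2 unit from the E18 mean, in the same direction and outside the E18 range. This left 878 rises (6.43% of the genes tested) and 2079 falls (15.2%). These counts rest on 1 probe set per gene. Of 577 such rises with more than 1 probe set, 505 had every probe set moving up. Falls were less even, and 696 of 1279 had every probe set moving down. At 2 log2 units on each array, 204 rises and 710 falls were left. No gene moved 1 log2 unit up on one P3 array and 1 unit down on the other (0 of 13645). Among called falls the median change was -1.18 on P3 array 1 and -1.70 on P3 array 2, while among called rises it was 1.10 and 1.09. Of the falls that did not hold, 1020 missed the limit on P3 array 1 only and 96 on P3 array 2 only. A stricter count took the changes that held, were also called after quantile normalization, and were also called with the E18 arrays averaged. It kept 657 rises (4.81%) and 1665 falls (12.2%), and changes in it are called firm below.

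**Figure D1:**
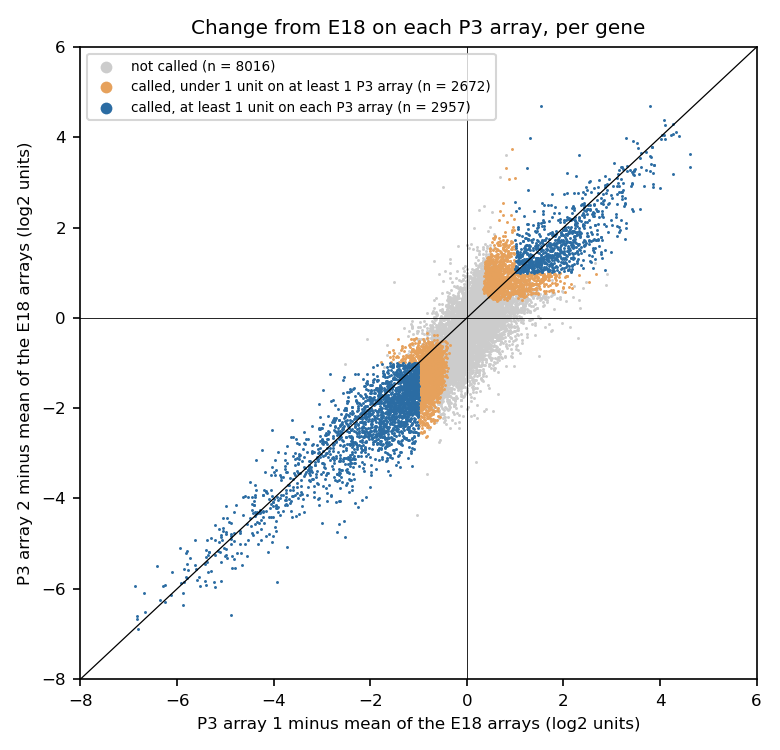
Each point is 1 of 13645 genes, with its change from the mean of the E18 arrays on P3 array 1 (x axis) and P3 array 2 (y axis), both in log2 units, and the diagonal marks equal change. The 2957 genes that hold on both P3 arrays are blue, and most of the falls lie below the diagonal, where the change on P3 array 2 was the larger.

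The 25 largest rises outside the cell-cycle and marker lists included Nptx1, Ryr2, Met, Camk4 and Cdh9. All 25 were firm, with changes of 12.4-fold to 19.5-fold, and every probe set of each gene moved up. Nptx1, a secreted pentraxin that gathers glutamate receptors at synapses, read 5.68 and 5.68 on the E18 arrays and 9.73 and 9.73 on the P3 arrays. It rose by 4.05 ± 0.22 log2 units (SE, n = 2 arrays per stage, limma adjusted p = 2.29e-05). Its E18 values lay below the lowest mean level tested (5.97), so it passed the filter on level only through its P3 and P6 arrays. The rule for holding requires that each P3 array of any of the 25 genes lie at least 1 log2 unit above the E18 mean. Ryr2, a channel that releases calcium from the endoplasmic reticulum, read 4.75 and 5.13 at E18 and 9.04 and 8.91 at P3. Its E18 values lay below the lower quartiles of their arrays (5.16 and 5.15) and were not tested against background. The size of its rise is therefore not exact. Met, the receptor for hepatocyte growth factor, went from 6.34 and 6.45 to 10.4 and 10.36. The nuclear calmodulin kinase Camk4 went from 7.29 and 7.25 to 11.1 and 11.05, and its 5 probe sets all rose. These genes differed little between the P3 arrays. Cdh9, a cell adhesion cadherin, was less even, with 10.19 on P3 array 1 and 8.91 on P3 array 2 against 5.79 and 5.36 at E18. Cdh9 and Ryr2, like Nptx1, passed the filter on level only through their P3 and P6 arrays. B3galt1, a galactosyltransferase, read 10.61 and 9.54 at P3 and 6.31 and 6.38 at E18. The others included Plppr4 (14.0-fold), a membrane protein of glutamatergic synapses, the matricellular protein Ccn3 (13.0-fold), and Grp (12.4-fold), the precursor of gastrin-releasing peptide.

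The 25 largest falls were led by Nr2e1, Ecrg4 and Wwtr1, and all 25 were firm. Probe sets were not tested against background, and in 6 of the 25 both P3 values lay below the lower quartile of their array, so the size of these falls is not exact. Nr2e1, an orphan nuclear receptor that maintains neural stem cells, read 10.1 and 10.18 at E18 and 4.04 and 4.51 at P3. It fell by 5.87 ± 0.20 log2 units (SE, n = 2, limma adjusted p = 7.49e-06), but it passed the filter on level only through its E18 arrays, and its P3 values were not shown to be above background. Wwtr1, a co-activator of the Hippo pathway, went from 11.22 and 11.16 to 5.41 and 5.6. The stem cell factor Sox1 went from 9.97 and 10.03 to 4.65 and 4.37. None of these P3 values came near the E18 range. Nrarp, a feedback inhibitor of Notch signalling, read 12.3 and 12.34 at E18 and 7.09 and 6.46 at P3, and the receptor Notch2 read 11.32 and 11.24 against 6.16 and 6.1. The SE of Notch2 was 0.69, because the fit pools the spread with the P6 arrays, which read 5.7 and 8.2. The thyroid hormone transporter Slco1c1 fell 43.5-fold, the growth factor Mdk 29.6-fold and the matrix glycoprotein Sparc 28.8-fold. Of the 17 falls with more than 1 probe set, 10 had every probe set moving down. In Ecrg4, Acss1, Notch2, Mgst1, Prdm16, Mmp14 and Sparc at least 1 other probe set did not.

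**Figure D2:**
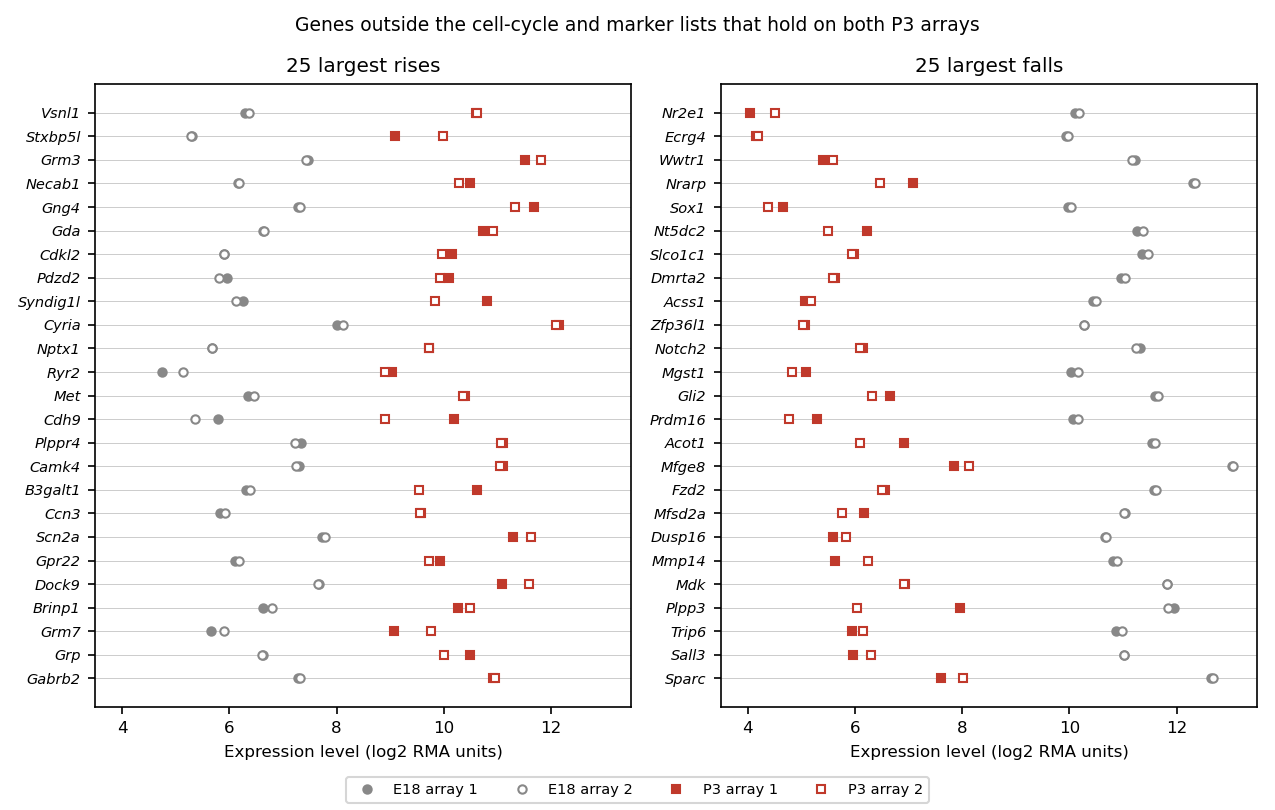
Log2 RMA levels on both E18 arrays (grey circles) and both P3 arrays (red squares) for the 25 largest rises and the 25 largest falls, one gene per row. The rule for holding places the P3 arrays of every row on one side of the E18 arrays. The widest gap between P3 arrays is that of Plpp3, at 7.96 and 6.04.

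Most genes of calcium and calmodulin signalling rose. Of 40 tested, 24 rose (60.0%, beside 15.5% over all genes), 1 fell and 20 of the rises held on both P3 arrays. The list's median change was 1.29, with 1.49 on P3 array 1 and 1.08 on P3 array 2, beside -0.13 over all genes tested. With all probe sets of a gene averaged, the list median was 0.67 and 21 of 39 were called higher. The sodium-calcium exchanger Slc8a3 read 7.68 and 7.71 at E18 and 10.43 and 10.76 at P3. Atp2b3, a calcium pump of the plasma membrane, read 6.32 and 6.59 against 9.56 and 8.99. Ppp3ca, a catalytic subunit of the phosphatase calcineurin, read 9.09 and 9.13 against 11.22 and 11.02. In these 3 genes, as in all 2116 called rises, both P3 values stood above both E18 values. Camk2d, a subunit of calmodulin kinase II, was the exception and fell by 0.82 ± 0.15 log2 units (limma adjusted p = 0.005), which did not reach 1 unit on either P3 array.

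Cyclic AMP and G protein genes had more rises than falls, and their shares of falls were not above the 25.7% over all genes. Of 43 cyclic AMP genes, 19 rose (44.2%, beside 15.5% over all genes) and 5 fell (11.6%), and 11 and 5 of them held. Adcy1, an adenylyl cyclase stimulated by calcium, read 9.65 and 9.7 at E18 and 12.55 and 12.13 at P3. Adcy8, of the same kind, read 4.39 and 4.33 against 6.58 and 6.29. Both E18 values of Adcy8 lay below the lower quartiles of their arrays (5.16 and 5.15), so the size of its rise is not exact. Adcy8 passed the filter on level only through its P3 and P6 arrays. Phosphodiesterases, which break the messenger down, split. Pde2a rose 5.55-fold, while Pde1b fell 6.11-fold, from 9.89 and 9.9 to 7.22 and 7.35, and the CREB co-activator Crtc3 fell 6.88-fold. Among 42 G protein and RGS genes, 18 rose (42.9%) and 10 fell (23.8%, near the background). Gng4, a gamma subunit, rose by 4.21 log2 units and Rgs4, which speeds up GTP hydrolysis by G alpha subunits, rose 4.32-fold. Gpsm2, which orients the mitotic spindle, fell 10.5-fold. Of 40 receptors for amines, acetylcholine, purines and peptides, 20 rose and 5 fell. Of these rises 9 held, beside 878 of 2116 called rises over all genes. The dopamine receptor Drd1 read 6.65 and 6.73 at E18 and 10.54 and 9.58 at P3. The falls included the lysophospholipid receptors Lpar1 (5.87-fold), S1pr1 (7.77-fold) and S1pr3 (22.2-fold). With the E18 arrays averaged, 8 receptor genes, 8 G protein genes and 10 cyclic AMP genes were called higher.

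Secreted and cell surface genes showed a similar excess of rises. Of 40 neuropeptide and secreted neuronal genes, 20 rose and 4 fell, with 13 and 3 holding. The falls were not weak. Tac1, the precursor of substance P, read 8.97 and 9.24 at E18 and 5.92 and 5.53 at P3, and the neurite growth factor Nrn1 read 10.73 and 10.84 against 7.65 and 7.53. Of 61 Slit, netrin and immunoglobulin guidance and adhesion genes, 31 rose (50.8%) and 7 fell (11.5%). Of these 24 and 7 held, and the list median was 0.77. Cntn1, an axonal adhesion protein, read 9.46 and 9.58 at E18 and 13.08 and 12.71 at P3. Lrrtm4, a postsynaptic organizer, read 4.67 and 4.74 against 8.12 and 7.95. Its E18 values lay below the lower quartiles of their arrays (5.16 and 5.15), so the size of its rise is not exact. Lrrtm4 passed the filter on level only through its P3 and P6 arrays. The falls included the secreted cues Ntn4 (13.3-fold) and Slit2 (8.7-fold). Ephrin, Eph receptor and semaphorin genes were near the background in both directions, with 11 rises (22.0%) and 13 falls (26.0%) among 50. Efna5 (4.23-fold) and Ephb1 (3.5-fold) rose, and Sema5b (15.5-fold), Plxnb2 (7.11-fold) and Efnb1 (5.79-fold) fell. After quantile normalization 20 of the 50 were called higher and 10 lower. Cadherins split likewise, with 8 rises (23.5%) and 7 falls (20.6%) among 34. Cdh11 rose 4.60-fold and the adherens junction gene Ctnna1 fell 7.48-fold.

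Genes of the microtubule cytoskeleton and of endocytosis had more rises than falls. Of 48 microtubule genes, 20 rose (41.7%, beside 15.5% over all genes) and 4 fell (8.3%, beside 25.7%), and 12 and 2 held. Dclk1, a microtubule-binding kinase, read 9.02 and 9.2 at E18 and 11.46 and 11.24 at P3, and all 9 of its probe sets rose. Tubb3, the neuronal beta tubulin, read 10.22 and 10.15 against 12.09 and 11.97. The severing enzyme Katna1 fell 3.95-fold. Of 83 endocytosis and membrane trafficking genes, 21 rose (25.3%) and 9 fell (10.8%), and 13 and 5 held. Sh3gl2, the neuronal endophilin, read 9.24 and 9.16 against 12.21 and 11.86. Snap91, a clathrin adaptor of nerve terminals, rose 4.44-fold, and Amph read 8.3 and 8.27 against 10.41 and 10.16. The count of rises here was 37 after quantile normalization and 8 with the E18 arrays averaged. Of 47 motor genes, 13 rose (27.7%) and 11 fell (23.4%, near the background). Myo5b, a motor of recycling endosomes, rose 12.2-fold, while Nde1, a dynein partner needed in dividing precursors, fell 20.5-fold and Myo10 fell 19.3-fold.

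**Figure D3:**
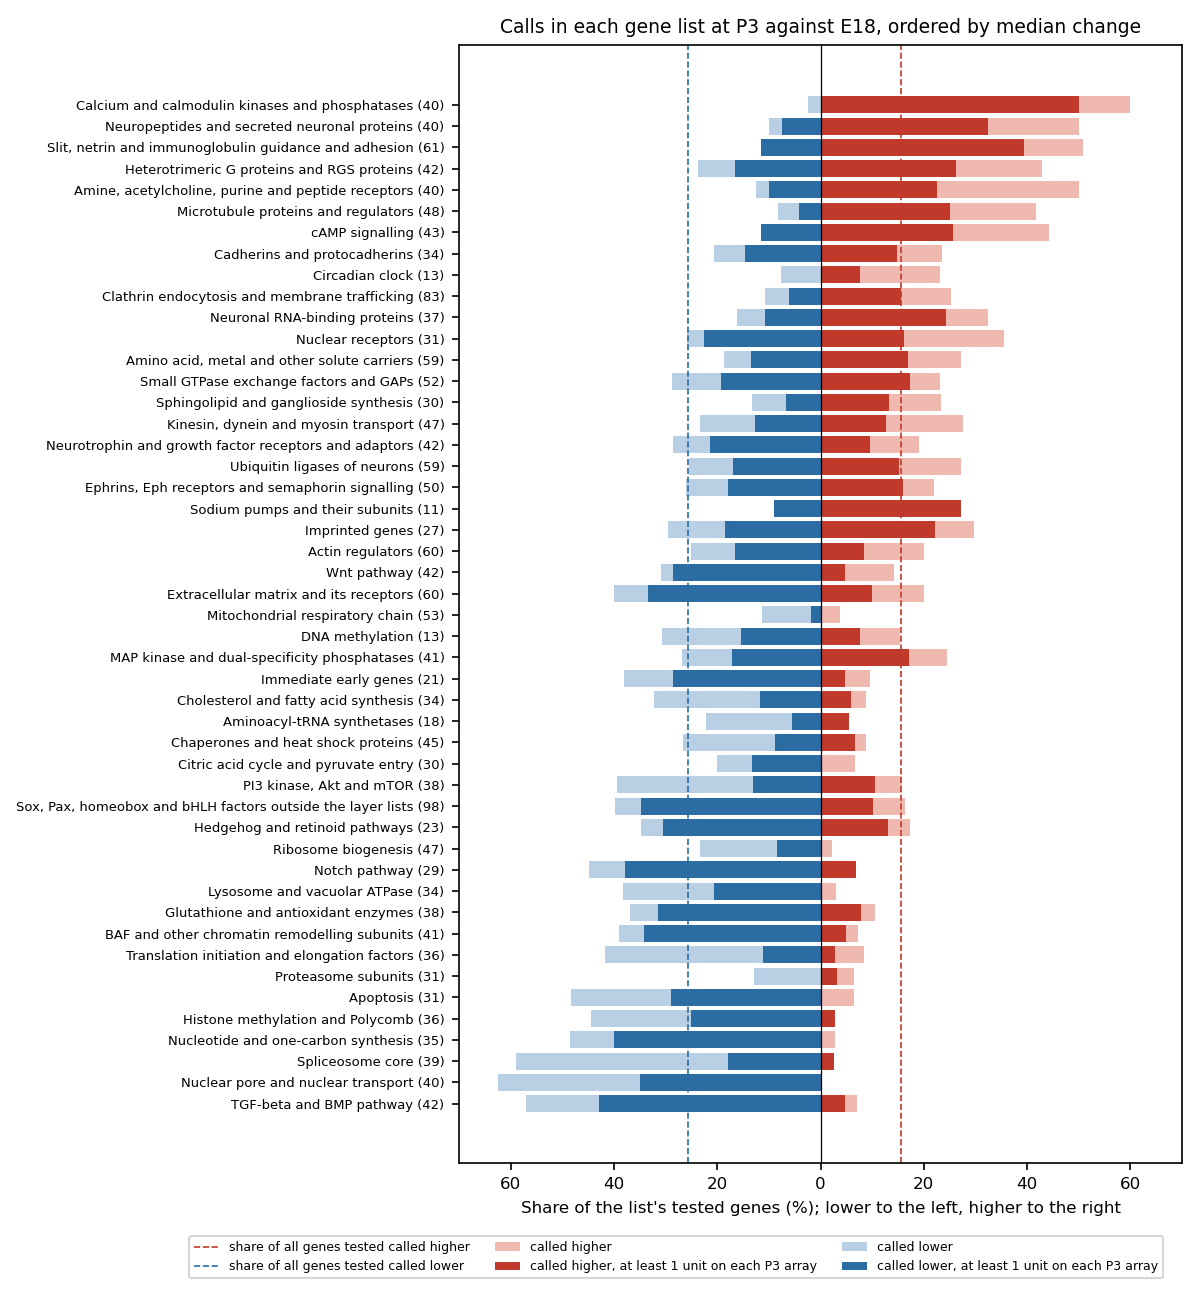
Share of each functional list's tested genes (in percent, number tested in brackets) that were called higher at P3 (right, red) or lower (left, blue), with the darker part showing those that hold on both P3 arrays. Dashed lines mark the shares over all genes tested, 15.5% and 25.7%. Calcium and calmodulin genes stand highest on the right, and nuclear transport, spliceosome and TGF-beta and BMP genes reach farthest to the left.

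Among signalling pathways active in precursors, falls were most common in the TGF-beta and BMP list. Of its 42 genes, 24 fell (57.1%) and 3 rose (7.1%), 18 of the falls held and the list median was -1.13. The median was -0.69 with no filter or after quantile normalization. With all probe sets of a gene averaged it was -0.22, and 18 of 38 were called lower. Id1 and Id3 are targets of BMP signalling that block neurogenic factors. Id1 read 10.55 and 10.57 at E18 and 6.62 and 6.6 at P3, and Id3 read 9.19 and 9.36 against 4.82 and 4.52. Both P3 values of Id3 lay below the lower quartiles of their arrays (5.27 and 5.4), so the size of its fall is not exact. The 3 rises were Smad1, Smad4 and Id2. Of these only Smad1, a transducer of BMP signals, was firm, at 9.28 and 9.28 against 10.74 and 10.87. Smad4 reversed to -0.18 when all its probe sets were averaged. In the Notch list 13 of 29 fell (44.8%, beside 25.7% over all genes) and 2 rose. Notch3 fell 11.0-fold, the ligand Jag1 10.2-fold and Mfng, a glycosyltransferase that modifies the receptors, 19.6-fold, whereas the neuronal ligand Dner rose 3.29-fold. Among 23 Hedgehog and retinoid genes, 8 fell (34.8%) and 4 rose (17.4%). The effector Gli3 fell 12.8-fold, and the co-receptors Cdon and Gas1 fell 14.6-fold and 15.3-fold. In the Wnt list 13 of 42 fell (31.0%, near the background) and 6 rose, and 12 of the falls held. The receptors Fzd1 and Fzd7 and the secreted antagonist Sfrp1 fell 8.75-fold, 12.9-fold and 27.9-fold, and Apc, which tethers beta-catenin for breakdown, rose 3.06-fold.

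Of 98 Sox, Pax, homeobox and bHLH factors outside the layer lists, 39 fell (39.8%) and 16 rose (16.3%), and 34 and 10 held. The shares over all genes were 25.7% and 15.5%. Emx2, a patterning factor of cortical precursors, read 9.83 and 10.1 at E18 and 5.09 and 4.95 at P3, and Zic1 read 9.16 and 9.08 against 4.92 and 4.57. The P3 values of Emx2 and Zic1 lay below the lower quartiles of their arrays (5.27 and 5.4), so the size of both falls is not exact. Rises included Mef2c, a factor of maturing excitatory neurons, at 10.76 and 10.73 against 12.76 and 12.86, Tshz3 (7.46-fold) and Hivep2 (4.02-fold). Of 31 nuclear receptors, 11 rose (35.5%) and 8 fell (25.8%, the background share). The oestrogen receptor Esr1 and the orphan receptor Esrrg rose 3.5-fold and 5.08-fold, and Nr2f1 and Nr2f2, which pattern cortical areas and ventral forebrain, fell 5.84-fold and 4.08-fold. Of 60 extracellular matrix genes and receptors, 24 fell and 12 rose, and 20 and 6 held. Tnc and Lamb2, matrix glycoproteins, fell 15.2-fold and 8.54-fold, and the proteoglycan Vcan rose 3.49-fold with all 8 probe sets. These falls stand in the same arrays in which the summed levels of cell-cycle and progenitor genes were lower at P3.

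Nuclear transport and spliceosome genes had many falls and few rises. Of 40 nuclear pore and transport genes, 25 fell (62.5%, beside 25.7% over all genes) and 0 rose in limma's test. Even at an unadjusted p below 0.05 in that test 0 were higher. Of the falls 14 held and 12 were firm. After quantile normalization 22 were called lower and 3 higher. Nup37, a structural part of the pore, read 10.69 and 10.68 at E18 and 8.08 and 7.31 at P3, and Nup205, another, read 11.56 and 11.61 against 9.61 and 9.17. Kpna2, an import receptor of dividing cells, fell 7.51-fold. Of 39 spliceosome genes, 23 fell (59.0%) and 1 rose. Only 7 of the 39 fell and held on both P3 arrays, near the 15.2% share over all genes. With the E18 arrays averaged 4 were called lower. Srsf10, a splicing regulator, read 9.33 and 9.52 at E18 and 7.76 and 7 at P3. With the hybridization controls as a covariate 1 spliceosome gene and 10 nuclear transport genes were called lower. Among 36 histone methylation and Polycomb genes 16 fell (44.4%) and 1 rose. Ezh2, the Polycomb methyltransferase, fell 6.5-fold, and the demethylase Kdm1a rose 2.35-fold. In the list of BAF and other remodelling subunits 16 of 41 fell (39.0%) and 3 rose. With the hybridization covariate these 2 lists had 6 and 8 falls. Of 13 DNA methylation genes, 4 fell (30.8%, near the background) and 2 rose. Chd7 fell 16.6-fold. The 3 rises of the remodelling list were the BAF subunit Smarcc2 (3.53-fold), the neuronal remodeller Chd5 (3.17-fold) and the neuronal BAF subunit Ss18l1 (2.01-fold), and Ss18l1 did not hold on both arrays. Of 35 nucleotide and one-carbon synthesis genes, 17 fell (48.6%) and 1 rose, and 14 of the falls held. Tk1, which phosphorylates thymidine, read 10.66 and 10.64 against 6.18 and 6.04. Rrm2b, the ribonucleotide reductase subunit of cells outside the cycle, was the rise, at 2.03-fold, but it did not hold on both P3 arrays and was not called with the E18 arrays averaged. The cell-cycle list, with its summed levels given above, moved the same way. Genes that also stand in a cell-cycle or marker list were not removed from the functional lists. The shares given for functional lists may therefore count some of them.

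RNA-binding proteins of neurons had 12 rises (32.4%, beside 15.5% over all genes) and 6 falls (16.2%, beside 25.7%) among 37. Celf4 read 8.81 and 8.86 at E18 and 11.15 and 11.01 at P3, and Rbfox2, a splicing factor, rose 5.63-fold. Msi1, a translation regulator of precursors, fell 3.42-fold, and Mbnl2 fell 8.15-fold. Translation factors fell in 15 of 36 cases (41.7%) and rose in 3 (8.3%). Of these, Eef2 read 13.24 and 13.22 against 11.75 and 11.25, while the neuronal elongation factor Eef1a2 rose 2.78-fold. With the E18 arrays averaged, 2 of this list were called lower and 1 higher.

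Housekeeping lists depended on the P3 array. Of 53 respiratory chain genes 6 fell (11.3%) and 2 rose (3.8%), both below the shares over all genes. The list median was 0.02 on P3 array 1 and -0.58 on P3 array 2. Proteasome genes had medians of -0.20 and -1.01, lysosome genes -0.04 and -1.05, and genes of cholesterol and fatty acid synthesis 0.04 and -0.63. Without P3 array 1, 23 respiratory chain genes and 25 of 31 proteasome genes were called lower, and without P3 array 2 the counts were 4 and 2. Each of these fits has 1 P3 array, which is assumed to vary like the other stages. Single members did hold on both arrays. Tpp1, a lysosomal peptidase, read 10.92 and 10.99 at E18 and 7.86 and 7.79 at P3. Pcx, which feeds pyruvate into the citric acid cycle, fell by 3.32 log2 units and Srebf1, a regulator of lipid synthesis, by 3.33. Over all genes tested the median shift differed with the level of the gene. With the genes divided into 5 equal groups by mean level, from lowest to highest, the median change on P3 array 2 was 0.31, 0.05, -0.64, -0.74 and -0.54. Quantile normalization brought the median of all genes from -0.13 to 0.09.

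**Figure D4:**
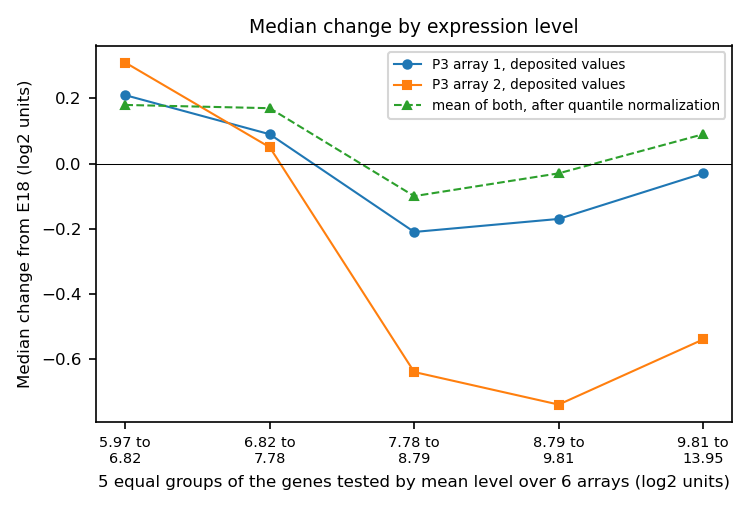
Median change from E18 in log2 units (y axis) for 5 equal groups of the 13645 genes by mean level over 6 arrays (x axis, limits in log2 units), on each P3 array as deposited and for the P3 mean after quantile normalization. P3 array 2 reaches -0.74 in the group of levels from 8.79 to 9.81, while the quantile-normalized medians stay between -0.10 and 0.18.

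Cell survival, stress and activity genes made a smaller group. Of 31 apoptosis genes 15 fell (48.4%, beside 25.7% over all genes) and 2 rose, and 9 of the falls held. The caspases Casp2 and Casp6 fell 7.10-fold and 5.21-fold, and the death gene Bbc3 rose 2.09-fold without holding on both arrays. With the E18 arrays averaged 5 genes of this list were called lower. Among 38 glutathione and antioxidant genes, 14 fell (36.8%) and 4 rose (10.5%). Nfe2l2, the regulator of antioxidant genes, read 9.31 and 9.43 against 4.95 and 5.31, and Gpx8 fell 16.2-fold. Both P3 values of Nfe2l2 lay below the lower quartiles of their arrays (5.27 and 5.4), so the size of its fall is not exact. Immediate early genes, which neurons induce on stimulation, fell in 8 of 21 cases (38.1%). Fos read 11.3 and 11.34 at E18 and 7.59 and 8.1 at P3, and Jun read 10.99 and 10.85 against 8.14 and 7.81. Homer1, whose gene yields both a long scaffold and a short induced form, rose 3.25-fold with all 6 probe sets. Of 27 imprinted genes, 8 rose and 8 fell (29.6% each, near the background for falls). Mest and Plagl1 fell 20.3-fold and 9.57-fold, and the non-coding RNA Meg3 rose 2.90-fold with all 11 probe sets.

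In 48 pairs of related genes, 1 member was listed by hand as broadly expressed and the other as neuronal, and 40 pairs had both members tested. The labels are loose for some pairs, since Lmna and Cfl2 are not mainly neuronal and Dnaja1 and Dnajc6 are only distantly related. The neuronal member rose in 21 of the 40 pairs, beside 15.5% of all genes tested. It fell in 0 by limma's test (0 were lower even at an unadjusted p below 0.05). Of the 21 rises 16 held on both P3 arrays. The broad member fell in 15 of the 40 pairs, beside 25.7% of all genes tested. The fall held in 13 of them, and the broad member rose in 3 pairs. In 7 pairs the neuronal member rose and the broad member fell, and in 4 of them both changes held. In the actin regulators Wasf2 and Wasf1, the broad Wasf2 fell by 2.76 ± 0.38 log2 units and the neuronal Wasf1 rose by 2.15 ± 0.24 (SE, limma adjusted p = 0.00164 and 0.000573). The chloride transporters gave the same picture, with the importer Slc12a2 at 9.55 and 9.63 at E18 and 8.48 and 8.24 at P3, and the exporter Slc12a5 at 8.14 and 8.3 against 11.06 and 10.29. The others were Ss18 and Ss18l1, Sh3gl1 and Sh3gl2, Gnai2 and Gnao1, Prkar1a and Prkar1b, and Chd4 and Chd5, in which the rises of Ss18l1, Gnao1 and Prkar1b did not hold. In 13 pairs only the neuronal member rose, as in Celf1 and Celf4, and in 8 only the broad member fell, as in Vamp3 and Vamp2. On both P3 arrays the difference within the pair moved toward the neuronal member in 32 pairs and toward the broad member in 5. The pairs were assembled with earlier results of these data known. Gnao1 and Ptbp1 changed direction when all probe sets of a gene were averaged.

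**Figure D5:**
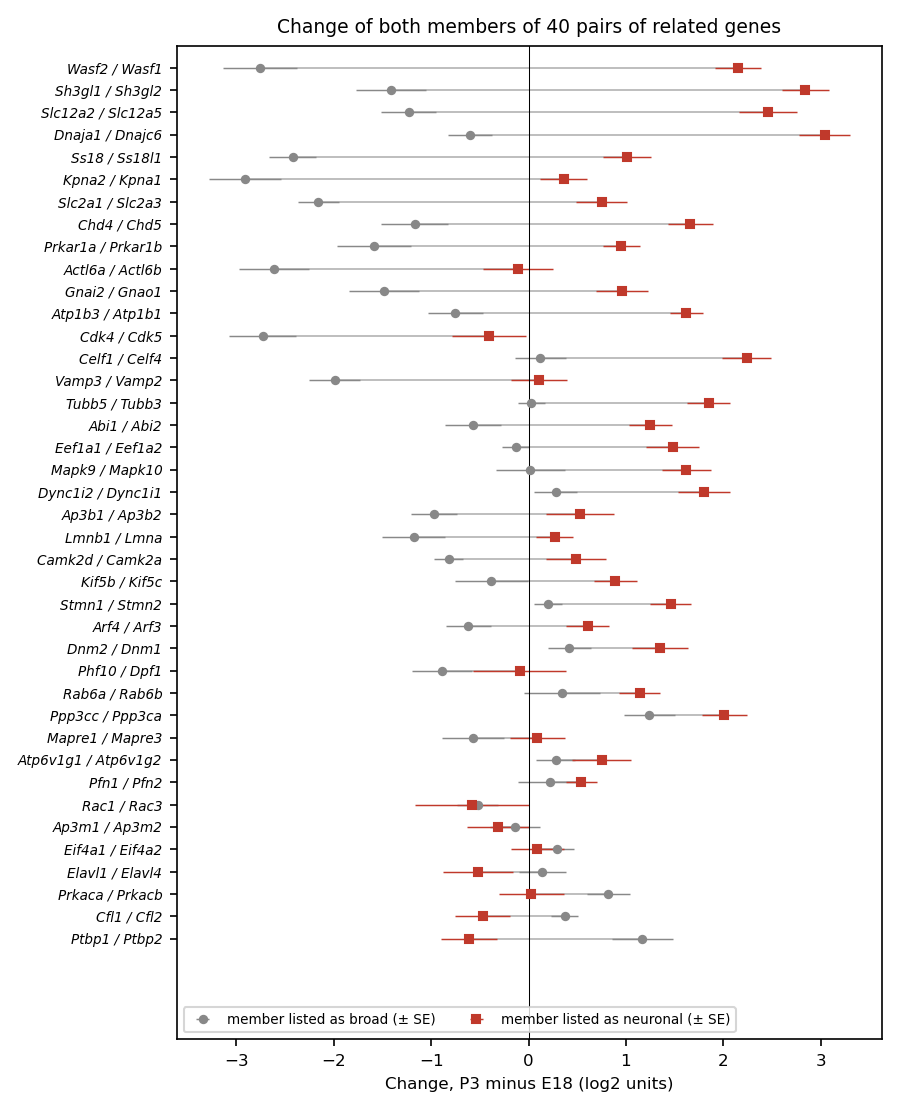
Change from E18 to P3 in log2 units (x axis), with its SE, for the member listed as broad (grey circle) and the member listed as neuronal (red square) of 40 pairs, ordered by the gap between them. Wasf2 and Wasf1 stand at the top, at -2.76 and 2.15, and Ptbp1 and Ptbp2 at the bottom, at 1.17 and -0.61.

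Some called genes differed widely between the P3 arrays. Ufsp1, a peptidase, read 6.29 and 6.17 at E18 but 7.76 on P3 array 1 and 10.93 on P3 array 2. Rian, a non-coding RNA, read 6.72 and 6.71 against 7.95 and 10.04. Cnn3, an actin-binding protein, read 12.71 and 12.72 against 10.04 and 7.98, and Fstl1 read 11.88 and 11.87 against 9.34 and 7.38. In all 4 the P3 arrays lay on the same side of E18, as they did in all 2116 called rises and all 3513 called falls. In Ufsp1 and Rian they lay farther from each other than P3 array 1 lay from E18, and in Cnn3 and Fstl1 they did not. Across all called genes, 478 read more than 1 unit higher on P3 array 1 than on P3 array 2, and 50 the other way. Among strongly expressed genes with the smallest changes, Usp47, a deubiquitinase, read 10.94 and 11.04 at E18 and 11 and 10.97 at P3, and Zmym3 read 10.66 and 10.7 against 10.72 and 10.64. Smarcd3, with equal stage means, read 12.09 and 11.14 on the P3 arrays, so its mean hid a difference of either sign.

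The upstream sequences of genes that moved were searched for short letter motifs on both strands, in windows from 250 bases before to 50 bases after the first listed start. RefSeq windows (GRCm38.p6) were found for 10975 of the 13645 genes. The letters GCGGGAAA, a form of the E2F site of cell-cycle genes, stood in 1.90% of all windows, 4.07% of 1719 windows of genes that fell on both P3 arrays and 0.59% of 678 windows of genes that rose. With marker and cell-cycle genes removed, the share among falls was 3.58%. The ETS letters CCGGAAGT stood in 7.39% of all windows, 6.86% of those of falls and 1.47% of those of rises. The cyclic AMP response element TGACGTCA stood in 3.12%, 3.14% and 2.95%. Its letters stand before Sh3gl2, which rose, and also before Nr2e1, which fell. The letters TATAAA stood in 7.72%, 5.82% and 8.7%, and CCAAT in 38.5%, 44.6% and 33.9%. These shares are a description of letters, with no test. To show such windows, the 250 bases before the start are given for 3 genes named above, 5′ to 3′ on the gene's strand, with the matching letters in capitals. Notch2 (chr3:98013288-98013537, plus strand) fell and holds the E2F letters, Sh3gl2 (chr4:85205206-85205455, plus strand) rose and holds the cyclic AMP letters, and Homer1 (chr13:93303507-93303756, plus strand) rose and holds the ETS letters on the other strand.
Notch2: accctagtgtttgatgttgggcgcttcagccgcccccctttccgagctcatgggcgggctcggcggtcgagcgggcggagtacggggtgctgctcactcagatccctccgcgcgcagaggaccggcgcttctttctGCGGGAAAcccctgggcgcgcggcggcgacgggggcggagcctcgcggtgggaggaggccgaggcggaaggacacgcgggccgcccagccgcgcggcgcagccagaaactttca
Sh3gl2: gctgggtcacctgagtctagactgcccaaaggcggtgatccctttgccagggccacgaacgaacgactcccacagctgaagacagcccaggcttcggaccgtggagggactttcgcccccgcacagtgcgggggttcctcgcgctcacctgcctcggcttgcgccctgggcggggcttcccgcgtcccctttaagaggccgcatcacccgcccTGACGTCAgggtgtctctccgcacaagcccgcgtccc
Homer1: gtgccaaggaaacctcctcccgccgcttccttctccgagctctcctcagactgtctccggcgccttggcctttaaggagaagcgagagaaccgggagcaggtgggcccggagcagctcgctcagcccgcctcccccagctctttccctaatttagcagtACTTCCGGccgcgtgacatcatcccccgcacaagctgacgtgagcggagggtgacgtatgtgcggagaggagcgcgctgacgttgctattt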

How the data were processed

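Expression was deposited on the log2 scale, as 1 value per probe set and array. The submitters' processing notes name RMA, which corrects background, normalizes and summarises probes. Its version and whether all arrays were run together are not given in the sources used here. RNA was amplified and biotinylated before hybridization, per the labels' protocols. The number of arrays limits the precision. Of 45101 probe sets, 34945 had 1 gene symbol in the platform annotation, 932 had several, 9160 had none and 64 were controls. A gene took the values of its brightest probe set by mean level, and the dimmest 25% of genes were not tested (lowest mean tested 5.97). This filter used the mean over all 6 arrays, so a gene dim at one stage could pass it through the other arrays.

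Stage means were fitted on all 6 arrays with limma 3.58.1 in R 4.3.3 (intensity trend, 3 residual degrees of freedom), tests were 2-sided, and p-values were adjusted by Benjamini and Hochberg over 13645 genes. The test was tried on simulated data in which each gene had the same spread at every stage. The spread of these arrays differed between stages, so that trial does not give error rates for them. The 48 functional lists, 10 marker lists, pairs and members were chosen with earlier results of these data known. Genes in a marker list were not removed from the functional lists. Named genes were the 25 largest rises and 25 largest falls that held on both P3 arrays outside marker lists (symbols that only number a clone, prediction, reading frame or family member were passed over), up to 4 members per list by p, up to 3 called against the list's majority, the 12 widest gaps between P3 arrays, pair members, and 8 stable genes. Alternatives changed normalization, filter, probe set, arrays, prior, block and covariates. The firm count was chosen after seeing the data. Figures were drawn with matplotlib 3.10.9.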

Additional observations from a re-analysis of the deposited data

How the results depend on the processing

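Of the 2116 rises and 3513 falls, the counts became 1284 rises with the lowest 50% of genes left out, 710 and 1742 with the E18 arrays averaged, and 801 and 1462 with the hybridization controls as a covariate. Leaving out 1 array at a time gave 701 to 2636 rises and 1696 to 5235 falls. The lowest came without E18 replicate 2 (701 and 1696) and the highest without P3 replicate 1 (2636 and 5235). Without E18 replicate 1 they were 738 and 1831. Quantile normalization gave 2874 and 2806, so rises were then the larger group. Changes holding on both P3 arrays ranged from 660 to 1300 rises and 1637 to 3937 falls with 1 array left out, the last without P3 replicate 1, which leaves 1 array to hold on. With the hybridization covariate 1338 falls held. At 2 log2 units they were 204 and 710, and at 0 units 2116 and 3513. With the replicate block the counts were 1842 and 3359. Deviations of same-numbered E18 and P3 arrays correlated at -0.201. The E18 arrays were nearly alike, so this value cannot tell whether the numbers pair the samples. With the numbers crossed at P3 the block gave 2414 and 3986. Other settings kept these counts within 1.5 times.

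Of 327 called genes named by the rule, 69 lost the call with the E18 arrays averaged and 76 with the hybridization covariate. With all probe sets averaged, Farsa (0.05), Sptlc1 (0.09), Tubb4b (0.23), Smad4 (-0.18), Ptbp1 (-1.13) and Gnao1 (-0.37) reversed. Dpf1 ran from -0.9 without P3 replicate 1 to 0.72 without P3 replicate 2, and Smarcd3 from -0.47 to 0.48. The cause was not tested.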
